A study of Mus musculus with 8 samples.

Results

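Proximal chromosome 11 is described here through the protein-coding genes that start between positions 1 and 60000000 of mouse chromosome 11 (mm9 build) and that had at least 10 counts in at least 4 of the 8 libraries and a mean of at least 8 CPM (counts relative to the library total, after scaling of the libraries). The region was selected on measured values, the log2 ratio of Rad9-deleted to wild-type cells read as a possible sign of a copy-number gain, so every value of that contrast is given as a description without a test. The interval holds 459 annotated protein-coding genes, and 240 of them met the rule, out of 9742 protein-coding genes of the same level on all chromosomes. Of the others, 91 had too few counts (29 of these had no read in any library) and 128 had enough counts but a mean under 8 CPM; 36 of the genes left out are olfactory receptor genes.

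The RNA came from mouse embryonic stem cells (mESCs), either wild type (R9wt) or Rad9-/- (R9del), that had been cultured for 1 day (D1) or 5 days (D5) on a satellite (space) or in the same kind of payload on Earth (ground). Each of the 8 combinations is 1 library, so no condition had a replicate, and the R9del cells are described only as Rad9-/- mESCs, without a second deleted line. D1 and D5 cultures sat in separate device groups and were seeded with different numbers of cells, and at D5 the numbers also differed between the genotypes. Library totals were 64673127 counts in Space_R9wt_D1, 60801746 in Space_R9wt_D5, 91390994 in Ground_R9wt_D1, 96416907 in Ground_R9wt_D5, 67640365 in Space_R9del_D1, 58238440 in Space_R9del_D5, 65678502 in Ground_R9del_D1 and 72077524 in Ground_R9del_D5. Values of single genes are given in this order of libraries, R9wt first, unless another grouping is named beside them. A count of 0 allows up to 3 counts, which is 0.0311 to 0.0515 CPM in these libraries and covers counting error only.

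Rad9 is the large subunit of the 9-1-1 clamp, a ring of Rad9, Hus1 and Rad1 that is loaded at damaged DNA and activates the ATR checkpoint kinase. Cultured mESC lines are known to acquire extra copies of chromosomes or chromosome arms, and transcripts of such a region tend to rise with the number of copies. Besides Hus1, the proximal part of mouse chromosome 11 carries many genes that every dividing cell uses, for ribosome assembly, protein folding and the cell cycle.

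Rad9a (ENSMUSG00000024824, chromosome 19, 4195198 to 4201603 on the minus strand) was examined first as a check of the labels. It stood at 90.9, 70.6, 91.5 and 83.8 CPM in the R9wt libraries and at 20.9, 27.5, 23.6 and 28.1 CPM in the R9del libraries. The 2 genotypes were far apart, with R9del low and reads left in all 4 of its libraries, and 10.9% of the gene's exon length overlaps exons of another gene. The mESC identity of all libraries was checked with 12 markers, which summed to between 5350 and 8558 CPM per library. Pou5f1 ranged from 963 to 1767 CPM, and no marker of this list was at 3 counts or fewer in any library.

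The ratio of each member was taken within the 4 pairs of libraries that share location and culture duration, as log2 CPM in R9del minus log2 CPM in R9wt (prior count 2), less the median of the same difference over 8582 protein-coding genes of the other autosomes. The median member had a ratio of 0.62 in the space D1 pair, 0.59 in the space D5 pair, 0.49 in the ground D1 pair and 0.44 in the ground D5 pair. All 4 medians were above 0, the mean of the pairs was 0.54 ± 0.08 (SD, n = 4 pairs), or 1.45-fold, and both space pairs lay above both ground pairs. A step from 2 to 3 copies with transcripts in proportion would be 0.58 on this scale. No DNA was measured and copy number was not tested, and in bulk RNA a part of the cells with more copies and more RNA per cell cannot be told apart.

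Of the members, 133 of 240 (55.4%) lay above the median of the other autosomes in 4 of 4 pairs, beside 20.6% of the genes of the other autosomes, while 7 (2.92%) lay below it in 4 of 4 pairs, beside 20.1%. Every R9del library was above every R9wt library for 76 members (31.7%, beside 6.05% of the other autosomal genes) and below it for 0 members (beside 6.62%). These counts come from the contrast that chose the region and are printed as a description only. The members' 10th percentile of the mean ratio was -0.17 and that of the other autosomes -0.74, and the 90th percentiles were 1.24 and 0.70. The difference between the distributions was 0.57 at the 10th percentile, 0.55 at the 25th, 0.56 at the median, 0.53 at the 75th and 0.54 at the 90th. The spread within each was alike, with an SD of 0.63 among members and 0.66 among genes of the other autosomes.

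**Figure D1:**
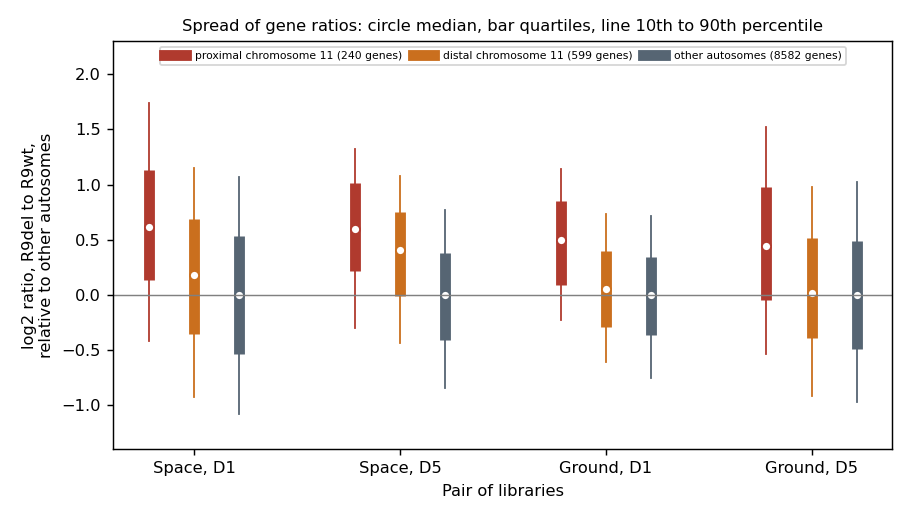
Log2 ratios of R9del to R9wt relative to the other autosomes (vertical axis) in the 4 pairs (horizontal axis); circles are medians over genes, bars quartiles and lines the 10th to 90th percentiles. The members' medians are 0.62, 0.59, 0.49 and 0.44, and their quartile bars overlap those of the other autosomes, whose medians are 0.

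Single libraries showed the same order. The median offset of the members from their mean over 8 libraries, relative to the other autosomes, was -0.35, -0.35, -0.24 and -0.22 in the R9wt libraries and 0.21, 0.31, 0.23 and 0.24 in the R9del libraries. The genotypes did not overlap, and the gap between the highest R9wt and the lowest R9del library, 0.43, was wider than the range within R9wt (0.13) or within R9del (0.10). As a share of all counted reads, the members took 2.995, 3.11, 3.05 and 3.15% in R9wt and 4.28, 4.53, 4.19 and 4.33% in R9del.

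**Figure D2:**
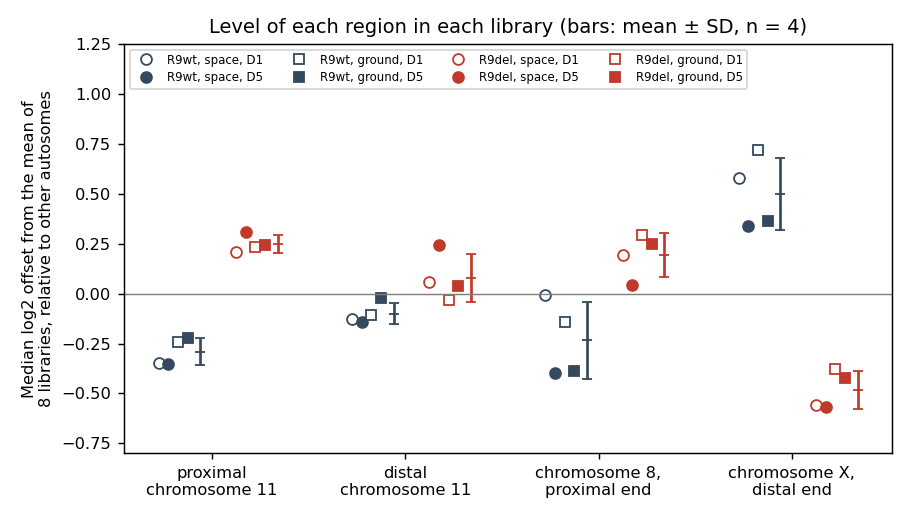
Median log2 offset of the genes of 4 regions in each library, relative to the other autosomes (vertical axis), with the mean and SD of each genotype (n = 4 libraries). Proximal chromosome 11 lies at -0.35 to -0.22 in R9wt and at 0.21 to 0.31 in R9del; the regions of chromosomes 8 and X were chosen after their values were seen.

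Along the chromosome the ratio was high from the centromeric end and came down beyond the end of the interval. In windows of 5 Mb, the mean of the 4 pairs was 0.60 for 0 to 5 Mb (35 genes), 0.75 for 5 to 10 Mb (30 genes), 0.91 for 15 to 20 Mb (10 genes) and 0.57 for 20 to 25 Mb (23 genes). It was 0.34 for 50 to 55 Mb (46 genes) and 0.51 for 55 to 60 Mb (36 genes). The windows at 10 to 15 Mb (-0.09) and at 35 to 40 Mb (0.09) hold 4 and 3 genes. Within 50 to 55 Mb, the stretch from 52.5 to 55 Mb (20 genes) had 0.10 as the mean of the pair medians and 0.28 as the median of the gene means. The boundary of the rule did not coincide with the step. The window at 60 to 65 Mb, outside the rule, still had 0.46 (42 genes), whereas 65 to 70 Mb had 0.06 (54 genes). In windows of 2.5 Mb, the mean was 0.77 at 62.5 to 65 Mb (7 genes), 0.86 at 65 to 67.5 Mb (6 genes), 0.00 at 67.5 to 70 Mb (48 genes) and -0.02 at 70 to 72.5 Mb (35 genes). Farther along it was 0.43 at 72.5 to 75 Mb (19 genes) and 0.40 at 75 to 77.5 Mb (27 genes), so the drop was not a single step.

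**Figure D3:**
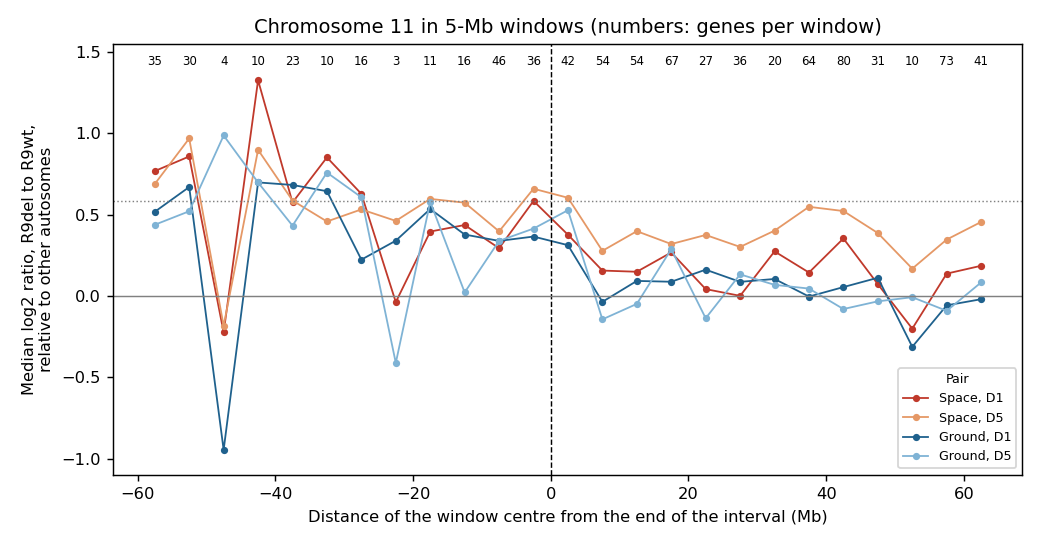
Median log2 ratio of R9del to R9wt relative to the other autosomes (vertical axis) for 5-Mb windows of chromosome 11 by distance from the end of the interval in Mb (horizontal axis, dashed line at 0), 1 line per pair; numbers are genes per window and the dotted line is 0.58. The 2 windows with 4 and 3 genes leave the level of their neighbours, and the first window past the end has a mean of 0.46 against 0.06 in the next.

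The 599 genes of distal chromosome 11 (starts above 60000000) had medians of 0.18 and 0.40 in the space pairs and 0.05 and 0.02 in the ground pairs, with a mean of 0.16 ± 0.18 (SD, n = 4 pairs). Their space D5 value stood apart from the other 3 pairs, and 27.5% of these genes were above the other autosomes in 4 of 4 pairs. Chromosome 11 as a whole ranked first of 20 chromosomes with a mean of 0.26 ± 0.16, and the 18 other autosomes lay between -0.16 (chromosome 12) and 0.13 (chromosome 8). Among 236 windows of 10 Mb with at least 10 genes, 5 of the 6 windows of the interval had a median of at least 0.3 in all 4 pairs, as did 0 of the 7 distal windows and 2 of 223 windows on other chromosomes. Those 2 were 0 to 10 Mb of chromosome 8 (0.49, 23 genes) and 100 to 110 Mb of chromosome 14 (0.52, 12 genes). On the low side, 4 windows were at -0.3 or lower in all 4 pairs, 3 of them from 140 Mb of chromosome X onward (-0.95 over 56 genes) and 1 at 120 to 130 Mb of chromosome 14 (-1.54, 11 genes). These windows outside chromosome 11 were picked after their values were seen.

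**Figure D4:**
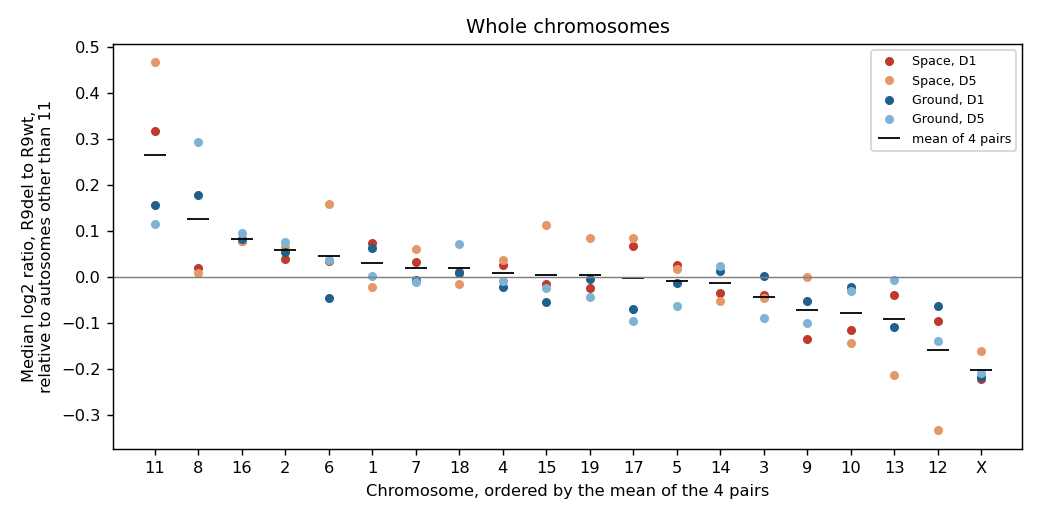
Median log2 ratio of R9del to R9wt of each chromosome relative to the autosomes other than 11 (vertical axis), chromosomes ordered by the mean of the 4 pairs (horizontal axis); points are pairs and short lines their mean. Chromosome 11 leads at 0.26, with its space pairs (0.32 and 0.47) above its ground pairs (0.16 and 0.12), and chromosome X is last at -0.20.

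Genes next to the limits of the rule gave no sharp edge. Just inside the interval, Rai1, a nuclear regulator of transcription, had a mean ratio of 1.01 ± 0.79 (SD, n = 4 pairs), Rasd1, a Ras-related GTPase, -0.34 ± 0.94, and Med9, a Mediator subunit, 0.59 ± 0.59. Just outside, Srebf1, the sterol-responsive transcription factor, had -0.18 ± 0.65, Tom1l2 0.46 ± 0.48 and Drc3 -0.14 ± 0.20. On the scale of level, Igtp (8.12 CPM), Meis1 (8.18 CPM) and Igfbp3 (8.65 CPM) were the lowest members, with ratios of -0.43, 1.88 and 1.16. Mgat1 (7.93 CPM), 0610010F05Rik (7.86 CPM) and Cdkl3 (7.59 CPM) fell short of the limit and had ratios of 0.16, 0.55 and 0.07.

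The role lists are described without a test between them. Of the other autosomal genes 20.6% were above in 4 of 4 pairs and 20.1% below. Some lists hold an older and a newer symbol of the same gene, or genes outside the interval. Listed names that are not members therefore did not all fail the limits of level. Among genes of RNA and translation, 22 of 26 listed names were members. Their median ratio was 0.58, and 15 of the 22 were above the other autosomes in 4 of 4 pairs and 0 below. Npm1, a nucleolar chaperone of ribosome assembly, had the highest level of all members per kb of exon (1289 CPM per kb). It was at 2771, 2818, 3265 and 2720 CPM in R9wt and at 3817, 3509, 3938 and 4650 CPM in R9del. All R9del libraries lay above all R9wt libraries, with a ratio of 0.44 ± 0.22 (SD, n = 4 pairs). G3bp1, an RNA-binding protein of stress granules, was at 765, 1251, 1002 and 927 CPM in R9wt and at 2040, 1939, 1589 and 1523 CPM in R9del. Its groups did not overlap either, and the space D1 pair had the largest difference (1.36). Rack1, a scaffold protein on the ribosome, differed from these: it was at 1938, 1836, 2462 and 2720 CPM in R9wt and at 2059, 2599, 2330 and 2320 CPM in R9del. Its groups overlapped, and its ratio was positive in both space pairs and negative in both ground pairs.

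Genome maintenance and the cell cycle were represented by 17 members of 19 listed names. Their median ratio was 0.61, with 10 above in 4 of 4 pairs and 1 below. Skp1, the adaptor of SCF ubiquitin ligases, was at 158, 345, 422 and 334 CPM in R9wt and at 672, 743, 849 and 501 CPM in R9del. The genotypes were separate, although the difference ran from 0.56 in the ground D5 pair to 2.04 in the space D1 pair. Ccng1, a cyclin induced by p53, was at 417, 424, 226 and 599 CPM in R9wt and at 835, 675, 634 and 543 CPM in R9del. Only the ground D5 pair of Ccng1 was negative (-0.16). Pold2, a small subunit of DNA polymerase delta, was at 523, 268, 497 and 476 CPM in R9wt and at 391, 359.7, 426 and 504 CPM in R9del. Its groups overlapped and its mean ratio was -0.05 ± 0.40.

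Hus1, the clamp partner of Rad9 (ENSMUSG00000020413, 8893140 to 8911194 on the minus strand of chromosome 11), was at 30.9, 21.3, 26.4 and 15.8 CPM in R9wt and at 28.3, 31.1, 25 and 30.8 CPM in R9del. The D5 pairs were high in R9del (0.57 and 0.94) and the D1 pairs were not (-0.18 and -0.09), so its mean ratio of 0.31 ± 0.53 was below that of the median member and smaller than its own spread. Over the 11 genes of the 9-1-1 clamp and its partners, the summed level was 583, 513, 537 and 499.6 CPM in R9wt and 459.5, 446, 456 and 428 CPM in R9del, Topbp1 was the most abundant, and no gene was at 3 counts or fewer in any library. These sums include the deleted gene. Without Rad9a they were 492, 442, 446 and 416 CPM in R9wt and 439, 418, 433 and 399.6 CPM in R9del, lower in R9del within each pair but with the genotypes overlapping. Topbp1 alone was at 184.6, 134, 124.1 and 142.1 CPM in R9wt and at 130.1, 114.5, 106 and 103.5 CPM in R9del. Hus1b was higher in R9del within each pair, at 1.83 CPM or less, and the remaining partners were mixed. The lower sums are therefore not a trait of the list as a whole. Rad1, the other partner in the ring, overlapped between genotypes at 52.8, 57.97, 86.1 and 63.9 CPM in R9wt and 38.4, 69.3, 78.0 and 49.5 CPM in R9del.

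Protein folding and turnover had 15 members of 18 listed names, with a median ratio of 0.56, 8 above in 4 of 4 pairs and 0 below. Canx, the lectin chaperone calnexin of the endoplasmic reticulum, was at 2742, 2205, 2196 and 2928 CPM in R9wt and at 3351, 3851, 3573 and 3456 CPM in R9del, without overlap. Atox1, a copper chaperone, was at 36.8, 24.0, 64.2 and 60.3 CPM in R9wt and at 59.6, 86.9, 84.2 and 58.9 CPM in R9del. Its ratio was 1.88 in the space D5 pair and -0.06 in the ground D5 pair, and the groups overlapped. Sar1b, a GTPase of vesicle budding, averaged 128 ± 23.2 CPM in R9wt and 147 ± 27.3 CPM in R9del (SD, n = 4 libraries). That spread includes differences of location and culture duration. Within pairs its ratio was 0.18 ± 0.19 (SD, n = 4 pairs), from -0.01 in the ground D1 pair to 0.40 in the space D5 pair.

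Metabolism and mitochondria had 12 members of 16 listed genes, with a median ratio of 0.39, 4 above in 4 of 4 pairs and 1 below. Vdac1, the channel of the outer mitochondrial membrane, averaged 957 ± 58.7 CPM in R9wt and 1035 ± 124 CPM in R9del, and Hint1, a nucleotide hydrolase, 161 ± 75.02 and 164 ± 53.8 CPM. The libraries of the genotypes overlapped in both genes. Mdh1, the cytosolic malate dehydrogenase, was at 153, 226, 290 and 254 CPM in R9wt and at 319, 488, 386 and 375 CPM in R9del, and its groups were apart with a ratio of 0.77 ± 0.36.

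Signalling and transcription had 21 members of 32 listed genes and a range from -2.14 to 2.02 around a median of 0.71, with 9 above in 4 of 4 pairs and 1 below. Arf1, a GTPase of the Golgi, averaged 917 ± 180 CPM in R9wt and 1038 ± 214 CPM in R9del. Sparc, a secreted matrix glycoprotein, averaged 790 ± 475 and 917 ± 509 CPM, and Flcn, a regulator of nutrient signalling, 172 ± 124 and 169.6 ± 52.7 CPM. None of these 3 genes, the most abundant of the list per kb of exon, differed by more than the spread of its libraries, which includes location and culture duration. Within pairs the ratios were 0.17 ± 0.27 for Arf1, 0.24 ± 0.44 for Sparc and 0.17 ± 0.84 for Flcn (SD, n = 4 pairs).

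**Figure D5:**
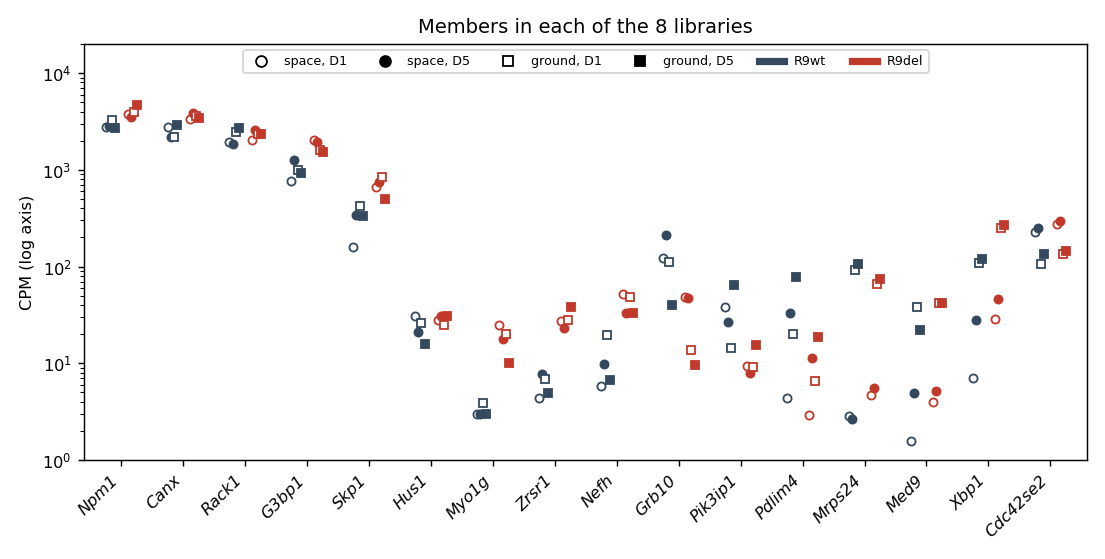
CPM of 16 named members in each library (vertical log axis, members on the horizontal axis), R9wt in dark and R9del in red, circles for space and squares for ground, open for D1 and filled for D5. Npm1, Canx, G3bp1, Skp1, Myo1g, Zrsr1 and Nefh have R9del above R9wt without overlap, and Mrps24, Med9 and Xbp1 separate by location.

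The 10 highest members by mean ratio among those above in 4 of 4 pairs included Myo1g, Zrsr1 and Iba57, each under 10 CPM in every R9wt library. Myo1g, a class I myosin of blood cells, was at 2.96, 3.03, 3.90 and 2.96 CPM in R9wt and at 25.2, 18.0, 20.1 and 10.1 CPM in R9del, a ratio of 2.43 ± 0.54. Zrsr1, an imprinted gene related to a splicing factor, was at 4.41, 7.75, 6.81 and 4.92 CPM in R9wt and at 27.4, 23.2, 28.2 and 38.2 CPM in R9del. Nefh, a neurofilament subunit, was at 5.84, 9.92, 19.5 and 6.67 CPM in R9wt and at 52.7, 33.1, 48.6 and 33.3 CPM in R9del. In all 3 genes the lowest R9del library lay above the highest R9wt library. The ratios of D930048N14Rik (2.14), Ebf1 (2.02, a transcription factor of B cells), Iba57 (1.89, iron-sulfur cluster assembly), Etaa1 (1.62, an activator of ATR) and Jmjd4 (1.57) rest on R9wt means of 3.99 to 16.4 CPM. Gpx3, a secreted glutathione peroxidase, had 22.2 and 14.1 CPM in the R9wt D1 libraries and 172 and 142 CPM in the R9wt D5 libraries, beside 275, 237, 123 and 240 CPM in R9del, so its ratio was over 3 at D1 and under 1 at D5. Tns3, a focal adhesion protein, was at 83.4, 119, 117 and 54.7 CPM in R9wt and at 372, 308, 247 and 159 CPM in R9del, again without overlap.

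The 5 lowest members went the other way. Grb10, an imprinted adaptor that restrains growth factor signalling, was at 122, 210, 111 and 39.9 CPM in R9wt and at 48.1, 47.9, 13.8 and 9.72 CPM in R9del. Within each pair R9del was lower, by a ratio of -2.14 ± 0.67, but the R9wt ground D5 library lay below both R9del space libraries. Pik3ip1, an inhibitor of phosphatidylinositol kinase, had -1.63 ± 0.65, Pdlim4, a cytoskeletal LIM protein, -1.46 ± 0.61, and Gm2a, a lysosomal activator of ganglioside breakdown, -0.86 ± 0.21. Fnip1, a partner of folliculin, had -0.74 ± 1.06, with -2.28 in the space D1 pair and 0.10 in the ground D1 pair.

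The promoters of Hus1, of the highest member and of the lowest member are printed because they stand for the partner of the deleted gene and for the ends of the range. They are RefSeq windows of 300 bases around the first listed start site (build GRCm38.p6, unlike the mm9 positions elsewhere), and capitals mark the GC box (letters GGGCGG), the TATA box (letters TATAAA) and the CCAAT box (letters CCAAT), each searched on both strands; neighbouring GC boxes can overlap and were each counted. The windows are chr11:9011142-9011441 for Hus1, chr11:12037371-12037670 for Grb10 and chr11:6520909-6521208 for Myo1g, all on the minus strand.
Hus1: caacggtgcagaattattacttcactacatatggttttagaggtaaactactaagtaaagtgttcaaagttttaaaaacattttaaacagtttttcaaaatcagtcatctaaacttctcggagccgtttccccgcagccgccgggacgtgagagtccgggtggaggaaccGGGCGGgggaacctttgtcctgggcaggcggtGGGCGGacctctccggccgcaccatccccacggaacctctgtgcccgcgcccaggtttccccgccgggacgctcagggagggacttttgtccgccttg
Grb10: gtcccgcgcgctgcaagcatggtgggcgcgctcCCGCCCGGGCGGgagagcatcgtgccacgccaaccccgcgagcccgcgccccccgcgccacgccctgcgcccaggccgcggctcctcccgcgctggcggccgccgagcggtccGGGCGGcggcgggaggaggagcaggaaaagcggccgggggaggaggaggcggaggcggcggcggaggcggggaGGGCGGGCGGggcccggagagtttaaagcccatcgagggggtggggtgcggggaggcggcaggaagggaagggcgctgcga
Myo1g: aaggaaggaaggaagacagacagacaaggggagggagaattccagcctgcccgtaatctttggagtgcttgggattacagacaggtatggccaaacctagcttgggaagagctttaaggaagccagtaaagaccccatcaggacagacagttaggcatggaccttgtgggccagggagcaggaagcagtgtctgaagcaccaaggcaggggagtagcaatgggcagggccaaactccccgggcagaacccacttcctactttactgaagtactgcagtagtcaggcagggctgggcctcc
Hus1 has 2 GC boxes and 21 CpG dinucleotides in its window, Grb10 has 5 GC boxes and 45 CpG, and Myo1g has 0 GC boxes and 2 CpG. Of 205 members with a promoter window, 70.2% hold a GC box on either strand, beside 35.9% of the 27025 RefSeq promoters (1 per gene). A TATA box is held by 7.80% of them (14.2% of all) and a CCAAT box by 37.6% (37.9% of all). The RefSeq promoters were not limited by level as the members were. Promoters of other genes of the same level were not compared, so these shares do not describe the region apart from its level. Members with a GC box had a median ratio of 0.58 and those without it 0.65. For the TATA box the medians were 0.65 and 0.59, and for the CCAAT box 0.61 and 0.58; the differences were not tested, and only 16 members hold a TATA box.

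The members had a median exon GC content of 49.8% (49.9% on the other autosomes) and a median exon length of 3954 bases (3794). Split by mean level into 3 groups of 80 members, the median ratio was 0.58 in the low, 0.56 in the middle and 0.59 in the high group. The groups by GC content had 0.57, 0.53 and 0.58, and those by exon length 0.48, 0.59 and 0.61. The share of members above the other autosomes in 4 of 4 pairs was less even. From low to high level it was 51.2, 51.2 and 63.8%, beside 19.6, 21.5 and 21.0% of other autosomal genes. From low to high GC content it was 68.8, 51.2 and 46.2%, beside 19.8, 20.4 and 21.6%. From short to long it was 46.2, 65 and 55%, beside 19.2, 22.7 and 19.85%. Genes of the other autosomes within the same limits had medians between -0.04 and 0.03. Members on the plus strand (115) had 0.61 and those on the minus strand (125) 0.52. Reads of overlapping genes could have been counted more than 1 way, and 59 members share at least 1% of their exon length with another gene. Those had a median of 0.57, and the other 181 had 0.56. Genes of the interval that the rule left out were also high: 65 protein-coding genes at 1 to 8 CPM had a median of 0.63, beside -0.07 for such genes of the other autosomes, and 40 genes of other classes at 1 CPM or more had 0.35 beside -0.13.

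Space against ground is a contrast that the rule did not use, and it was tested over all 20473 genes with enough counts, 4 libraries against 4, with the quasi-likelihood test of edgeR and p-values adjusted by Benjamini-Hochberg. Of the 240 members, 1 was higher in space at an adjusted p under 0.05 (0.417%, beside 1.19% of all genes tested) and 13 were lower (5.42%, beside 5.13%). Among genes of the other autosomes chosen by the same limits of level, 2.09% were higher and 7.71% lower; the differences between these shares were not tested. The members' median log2 fold change was 0.01, beside 0.03 for those genes and 0.05 over all genes. When the fit also took the pairing of libraries into account, the members' counts were 9 higher and 23 lower (3.75% and 9.58%, beside 2.16% and 6.52% of all genes), and with DESeq2's Wald test 6 and 20 (2.5% and 8.33%, beside 3.93% and 7.70%). Within pairs, the members' shift from ground to space relative to the other autosomes was -0.13 in R9wt at D1 and between -0.01 and 0.02 in the other 3 pairs, while the genotypes differed by 0.44 to 0.62.

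Mrps24, a protein of the mitochondrial ribosome, was the member with the largest change. It was at 2.83 and 2.67 CPM in space and 92.2 and 106 CPM on the ground in R9wt, and at 4.72 and 5.51 CPM in space and 66.3 and 73.6 CPM on the ground in R9del. It fell by 4.43 on the log2 scale (standard error 0.33, adjusted p = 6.59e-05 by edgeR), in 4 of 4 pairs, and 15.4% of its exon length overlaps another gene. Mgat4b, a glycosyltransferase of the Golgi, fell by 3.50 (standard error 0.38, adjusted p = 0.000384 by edgeR), and Med9 fell by 3.21 (standard error 0.41, adjusted p = 0.00113 by edgeR). Tbc1d10a, which inactivates Rab GTPases, fell by 2.82 (adjusted p = 0.000421 by edgeR). Xbp1, the transcription factor of the unfolded protein response, was at 7.04 and 27.9 CPM in space and 110 and 119 CPM on the ground in R9wt, and at 28.7 and 46.2 CPM in space and 248 and 272 CPM on the ground in R9del. All 4 space libraries were below all 4 ground libraries in these 5 genes, and Xbp1 was higher in R9del than in R9wt within every pair (mean ratio 1.26 ± 0.51).

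The 1 member that rose was Cdc42se2, an effector of the GTPase Cdc42, at 227, 249.5, 273 and 293 CPM in the space libraries and 106, 136, 135 and 145 CPM in the ground libraries. It rose by 1.00 on the log2 scale (adjusted p = 0.00899 by edgeR, standard error 0.18), in 4 of 4 pairs. The 13 members that were lower in space had a median exon GC content of 57.6%, beside 49.4% for the other 227 members. They started between positions 4035205 and 59761708, across the interval. Genes lower in space outside the interval were not compared by GC content, so the difference cannot be called particular to these members. The calls of Lsm11, Rhbdf1, Zfp692 and Gas2l1, named here after their values were seen, were each lost in 4 of 13 alternative fits (adjusted p up to 0.0848 by edgeR), always on leaving out 1 library; Ground_R9del_D5 and Space_R9del_D1 were among the 4 libraries for each gene. The other 10 calls were kept in all 13.

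D5 was compared with D1 in the same way. Counting genes that differed 2-fold or more with p under 0.05 before adjustment, 4 members were higher at D5 (1.67%, beside 2.35% of all genes) and 0 were lower (beside 1.08%). At an adjusted p under 0.05 edgeR called 0 of all genes, members included, and DESeq2's Wald test called 0 members beside 78 genes higher and 12 lower. At an unadjusted p under 0.05, edgeR gave 7 members (2.92%, beside 4.32% of all genes), DESeq2 12 (5%, beside 6.02%) and edgeR with a term for the pair 19 (7.92%, beside 9.01%). The 4 higher genes were Pdlim4, Septin8, Pttg1 (securin, which holds sister chromatids together) and Hand1 (a transcription factor of trophoblast and heart), the last 3 of them named after their values were seen. Pttg1 fell from 64.7 CPM at D1 to 49.3 CPM at D5 in R9wt in space. It rose in the other pairs, most in R9wt on the ground (67.5 to 253.5 CPM). Pdlim4 was at 4.41 and 19.97 CPM at D1 and 33.0 and 78.9 CPM at D5 in R9wt, and at 2.93 and 6.58 CPM at D1 and 11.4 and 18.7 CPM at D5 in R9del. It had the smallest p of the members (unadjusted p = 0.0192, adjusted p = 1 by edgeR) and was not called after adjustment. Neither was Tcn2, a carrier of vitamin B12 (log2 fold change 0.75), nor Sparc (0.96), and these genes also fell short of 2-fold. The count of 4 was 1 without Space_R9wt_D1 (0.417%, beside 2.40% of all genes) and 2 without Ground_R9wt_D1 (0.833%, beside 2.20%). Without the former or the latter library 1 member was lower (0.417%, beside 1.31% and 1.30%). The median log2 fold change of the members was 0.04, beside -0.03 over all genes.

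The genotype difference of a gene was compared between locations as an interaction with culture duration as a covariate, fitted over 22561 genes. The interaction is a difference between the same ratios that the rule used, though the rule did not compare them between locations. Its counts are therefore a description of the members and not a test of them. At an unadjusted p under 0.05, 2 members were called (0.833%, beside 3.12% of all genes), and DESeq2's Wald test gave 4 (1.67%, beside 4.499%). At an adjusted p under 0.05 edgeR called 0 of all genes, and DESeq2 called 0 members beside 19 genes with a positive and 15 with a negative interaction. The 2 members were Mrps24 (log2 interaction 1.40, standard error 0.37) and Uqcrq, a subunit of respiratory complex III (1.16, standard error 0.45), the latter named after its values were seen. Uqcrq was at 40.4 and 40.9 CPM in space and 120 and 90.3 CPM on the ground in R9wt, and at 68.1 and 106 CPM in space and 113 and 88.6 CPM on the ground in R9del. The R9wt space libraries were the lowest, and Space_R9del_D1 also lay below all 4 ground libraries. Over the members, the median interaction was 0.18, beside 0.00 over all genes. This is a description, since it draws on the ratios that chose the region. It is not particular to the interval: distal chromosome 11 also had higher median ratios in space (0.18 and 0.40) than on the ground (0.05 and 0.02). The count of 2 depended on single libraries: it was 22 (9.17%, beside 5.20% of all genes) without Space_R9wt_D5, 15 (6.25%, beside 6.90%) without Ground_R9wt_D1 and 14 (5.83%, beside 4.44%) without Ground_R9wt_D5. It was 12 (5%, beside 5.02%) without Space_R9wt_D1, 11 (4.58%, beside 2.68%) without Space_R9del_D1, 4 (1.67%, beside 1.77%) without Space_R9del_D5 and 1 (0.417%, beside 1.83%) without Ground_R9del_D1.

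In the lists of genes by role, space against ground gave 0 members higher in each of the 5 lists (beside 1.19% of all genes). It gave 1 of 22 lower in RNA and translation (Lsm11) and 1 of 15 lower in protein folding and turnover (Xbp1), with 0 lower in the other 3 (beside 5.13% of all genes). Counts by the D5 rule were 1 of 17 higher in genome maintenance and the cell cycle (Pttg1), 1 of 21 higher in signalling and transcription (Hand1) and 0 in the other 3 (beside 2.35%), with 0 lower in each of the 5 (beside 1.08%). As a description only, the interaction gave 1 of 12 in metabolism and mitochondria (Uqcrq) and 0 in the other 4 (beside 3.12%). Lists of 12 to 22 genes are too small to tell such counts from these shares. For the 9-1-1 clamp and its partners all these counts were 0 of 11.

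Markers of other cell types were summed in each library as a check of what else the cultures could hold. Trophoblast markers (8 genes, Krt8 the most abundant) summed to 98.6, 1203, 131 and 585 CPM in R9wt and to 237, 282, 180 and 499 CPM in R9del, and Cdx2 stayed at 2.86 CPM or less. Hand1, which is also a member, had its highest values in Space_R9wt_D5 (114 CPM) and Ground_R9del_D5 (62.0 CPM). The list was higher at D5 than at D1 within each pair, and the genotypes overlapped. Early neural markers (6 genes, Ncam1 the most abundant) summed to 92.8, 127, 136 and 50.9 CPM in R9wt and to 234, 317, 189 and 173 CPM in R9del. The sums did not overlap, which came from Ncam1 and Tubb3; Nes was higher in R9del within each pair with the genotypes overlapping, Zic1 was lower within each pair, Otx2 was lower in 3 of 4 pairs, and Pax6 stayed at 2.71 CPM or less. Primitive endoderm markers (8 genes, Dab2 the most abundant) summed to 17.3, 149.9, 30.3 and 49.8 CPM in R9wt and to 67.7, 227, 45.5 and 67.2 CPM in R9del, higher in R9del within each pair. Dab2, Sox7 and Pdgfra were higher in R9del within each pair, Sox17 was lower in 3 of 4 pairs, and the other genes of this list were mixed. Fibroblast or feeder markers (10 genes, Thy1 the most abundant) summed to 55.3, 87.6, 39.6 and 69.8 CPM in R9wt and to 35.5, 54.7, 29.1 and 36.8 CPM in R9del, with Dcn, Lum, Postn and S100a4 at 3 counts or fewer in 6, 7, 4 and 4 libraries. Mesoderm markers (7 genes, Kdr the most abundant) summed to at most 13.0 CPM in any library. None of these sums was at 0, no gene of the 5 lists was at 3 counts or fewer in all 8 libraries, and their part in the ratio of proximal chromosome 11 was not tested.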

How the data were processed

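The authors checked the reads with FastQC, mapped them to mm9 with TopHat (version 2.0.9, default parameters) and deposited whole-number read counts for 50686 Ensembl genes in 8 libraries, not normalized. The counting program, annotation and use of strand are not given in the sources used here. All columns were used. Gene positions, classes and exons came from GENCODE vM1 on NCBIM37 (mm9), which holds 32722 of the identifiers (64.6%) and 97.1% of the counts. Older symbols were updated from RefSeq by their synonyms (16 of 240 members).

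The members and lists were chosen with earlier results of these data known. Libraries were scaled by TMM (factors 0.952 to 1.04) in edgeR (version 4.0.16, R version 4.3.3). Ratios are log2 CPM with a prior count of 2, within 4 pairs, less the median of the other autosomes. Contrasts other than R9del to R9wt used edgeR's quasi-likelihood test (glmQLFit) on genes kept by filterByExpr with a minimum count of 10, with Benjamini-Hochberg adjustment, and DESeq2 (version 1.42.0) as an alternative. The procedure was also run on simulated data, and the outcome of that run is not given here. With 1 library per condition, the p-values treat libraries that differ in the other conditions as replicates. Libraries sharing the other conditions deviated together from their group means (correlations across genes of 0.24 to 0.68 for space and ground and 0.48 to 0.76 for D5 and D1, beside means of -0.13 and -0.20 for other pairings; the pairs come from the labels), so space against ground and D5 against D1 were also fitted with a term for the pair (block).

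Named genes follow 1 rule: Rad9a and Hus1; the 3 members of highest CPM per kb of exon in each role list; the 10 highest members above in all 4 pairs and the 5 lowest; the 3 genes nearest to each limit on each side; the 5 of highest CPM per kb; and up to 5 members per direction at an adjusted p under 0.05, or the 3 of smallest p. Alternatives were other level and position limits, all gene classes, a prior count of 0.5, correction for exon GC content and level by loess, other scalings, no filter, and each library left out. Coordinates of mm9 and GRCm38.p6 were not converted.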

Additional observations from a re-analysis of the deposited data

Results flagged for a closer look

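Samples far from the others of their genotype were looked for in 103 groups of 4 libraries, of which chance sets aside about 1 in 20, and 6 stood out. Within R9del, Sparc had 1679 CPM in Space_R9del_D5, Meis1 had 26.0 CPM in Space_R9del_D1 and Igtp had 9.25 CPM in Space_R9del_D1, each far above the other 3 libraries. The wild-type library of the same condition, Space_R9wt_D5, also had the highest Sparc value of its genotype (1472 CPM). Within R9wt, Myo1g had 3.90 CPM and Iba57 had 8.44 CPM in Ground_R9wt_D1, and Rasd1 had 26.9 CPM in Space_R9wt_D5.

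Other genes had ratios of R9del to R9wt, relative to the other autosomes, of opposite sign in both pairs of 1 condition and both pairs of the other; with 2 pairs on each side these differences were not tested by that comparison. Between D1 and D5 the mean ratio was -0.13 and 0.76 for Hus1, -0.35 and 0.26 for Pold2, and -0.16 and 0.28 for Hint1. Between space and ground it was 0.28 and -0.17 for Rack1, and 0.88 and -0.52 for Mrps24. For Mrps24 the log2 interaction of location and genotype was 1.40, and for Rack1 it was 0.45. These values draw on the ratios that flagged the genes and are given without a test.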

How the results depend on the processing

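The median ratio of 0.54 stayed between 0.48 (starts below 70 Mb) and 0.60 (library size alone, not relative to other autosomes) over the alternatives with all libraries, and between 0.51 and 0.57 with each library and its pair left out. It was 0.55 after correction for exon GC content and level, 0.57 with a mean CPM of at least 1 and 0.53 with at least 30. The percent of members above the other autosomes in all pairs, 55.4, stayed between 49.7 (starts below 70 Mb) and 60.1 (starts below 50 Mb), and between 58.3 and 62.9 with 3 pairs, where fewer pairs have to be above. The count of members higher in space, 1, was 6 by the Wald test of DESeq2 and 9 with a term for the pair, and that of members lower in space, 13, was 20 and 23. With each library left out these counts ranged from 1 to 2 and from 9 to 14; the higher count was 2 without Space_R9del_D1 (0.833%, beside 0.434% of all genes). The share of all genes higher in space fell to between 0.238 and 0.873% in these fits, and that of members was above it in 4 of 8. Higher at D5 ranged from 1 to 5 and lower at D5 from 0 to 1. The interaction count of 2 was 4 with DESeq2's Wald test (1.67%, beside 4.499% of all genes), 5 without a filter on low counts (2.08%, beside 2.20%), and from 1 to 22 with each library left out. The cause of these differences was not tested. With the term for the pair, members at an unadjusted p under 0.05 between D5 and D1 went from 7 to 19, and the counts at 2-fold or more from 4 to 5 higher and stayed at 0 lower. Other scalings kept the space and D5 counts as they were.

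Depth did not limit the members, whose mean was at least 8 CPM where 3 counts stand for at most 0.0515 CPM. What limits every value is the single library of each condition: the genotype ratio rests on 4 pairs of the same 2 cell lines, so a difference between the lines and one due to the deletion cannot be told apart. Culture duration and device group cannot be told apart either. The end of the interval was set by the rule, and windows of few genes vary widely.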

Other observations

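Genes of the Y chromosome, outside the autosomal comparison, were at or near 0 in the R9wt libraries and were counted in the R9del libraries. Eif2s3y had 0, 0, 0 and 9 counts in R9wt and 103, 36, 134 and 278 counts in R9del, or 0.616 to 3.72 CPM. Ddx3y had 0, 0, 4 and 4 counts in R9wt and 26, 18, 46 and 43 in R9del, whereas Kdm5d had 1 or 2 counts in every library. Xist, the RNA of the inactive X chromosome, was at 4.29, 1.19, 16.1 and 3.64 CPM in R9wt and at 6.40, 4.28, 7.51 and 5.24 CPM in R9del, with overlap. The distal end of chromosome X, from 140 Mb, had offsets of 0.58, 0.34, 0.72 and 0.36 in R9wt and -0.56, -0.57, -0.38 and -0.42 in R9del, while the rest of chromosome X had a median ratio of -0.05 (252 genes). These genes and regions were picked after their values were seen.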
